A study of Mus musculus with 8 samples.

Results

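The expression of 9 complement genes was compared between the limbal rim and the corneal button of the mouse eye by RNA sequencing. The 9 genes encode the 3 chains of C1q (C1qa, C1qb and C1qc), the central components C3, C4b and Cfb, and the inhibitors Serping1, Cd55 and Cd59a, and they were taken by symbol from a table with 23420 named genes. All tissue came from 8-week-old wild-type C57BL/6J mice with no treatment, and the groups were defined by the region dissected. The limbal rim borders the sclera and houses the epithelial stem cells, and the corneal button is the clear tissue it encircles. Rims and buttons from several eyes were pooled by region, so the table describes a pool of eyes and not individual animals. The labels number 4 samples per tissue, but behind the table stand 2 libraries, 1 per tissue. With no replicates, no test across samples could be made and no p-value is given. Region also cannot be told apart from differences between the pools, the dissections or the library preparations. Differences are given with a 95% counting interval (CI), taken from exact Clopper-Pearson limits on how a gene's reads split between the libraries, which cover counting error only and not the spread between animals or dissections.

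Complement is a cascade of blood and tissue proteins that tags and destroys microbes and cell debris. The classical pathway starts when C1q, a bundle of 3 kinds of chain, binds antibody or debris and switches on the proteases C1r and C1s, which cut C4 and C2. The alternative pathway uses factor B, the product of Cfb, and both pathways cut C3, the central component. Healthy tissue is protected by inhibitors in the fluid and on cell membranes. Most plasma complement is made in the liver, while C1q is known to be made largely by macrophages and dendritic cells, and the cornea is known to hold complement proteins and membrane inhibitors.

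All 9 genes had more normalized reads in the limbus than in the cornea, and for all 9 the CI of the ratio lay above 1. In the table as a whole the limbus was higher in this sense for 35.5% of the 15572 genes that passed 3 reads in either library, and the cornea for 36.7%. At a ratio of at least 2 and a mean of at least 10 normalized reads, 8 of the 9 genes were higher in the limbus, against 18.0% of 13932 genes, and 0 were higher in the cornea, against 8.88%. The median log2 ratio of the 9 genes, limbus over cornea, was 2.74, whereas the median over the 15572 genes was 0.01. Summed over the 9 genes, the normalized reads came to 2172 (cornea) and 11634 (limbus), a log2 ratio of 2.42. Serping1 alone supplied 1369 and 7737 of these, so the sum mostly reflects that gene. The ratios of the members were far from equal. Of the 36 pairs of members, 31 had ratios that differed beyond counting error and 5 did not.

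**Figure D1:**
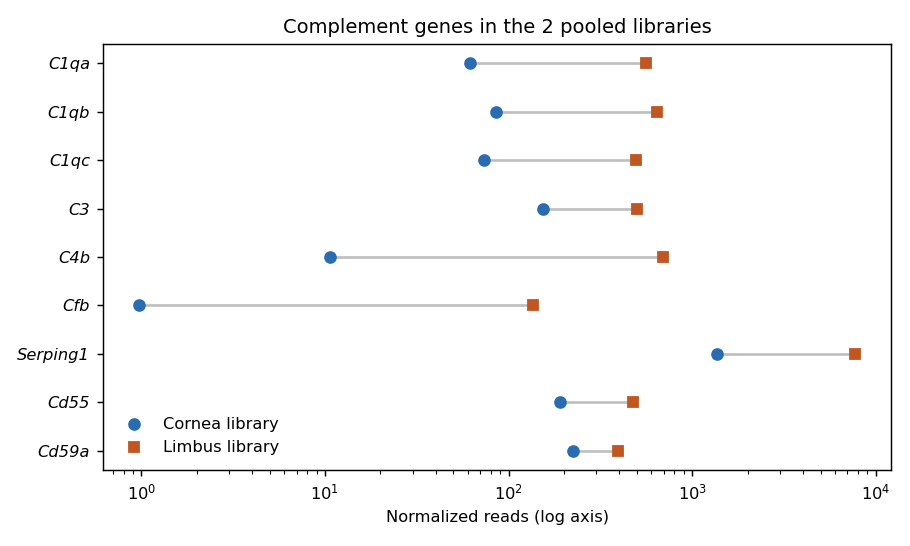
Normalized reads of each complement gene in the cornea library (circles) and the limbus library (squares) on a log axis, 1 value per tissue and no error bars. All squares lie to the right of the circles, with the widest gaps for Cfb (0.967 and 135 normalized reads) and C4b (10.6 and 694) and the narrowest for Cd59a (225 and 393).

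The reads behind these values came from libraries with 26104317 reads (cornea) and 21182025 reads (limbus) on named genes, divided by size factors of 1.03 and 0.967. The labelled tissues were checked by their markers. The corneal keratin Krt12 had 1137735 cornea reads and 233324 limbus reads, and the limbal keratin Krt15 had 37738 and 353826. Markers of skeletal muscle, which neither tissue is meant to hold, were higher in the limbus for 5 of 5 genes, among them Acta1 with 10 cornea reads and 1564 limbus reads. The vessel marker Pecam1 had 6 and 831 reads. Reads of these 2 markers were nearly lacking in the button. In a bulk library, fewer cells of a type and less RNA per cell cannot be told apart, and this applies to every difference below.

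The 3 C1q chains, which recognise the target and start the classical pathway, were 6.68 to 9.07 times higher in the limbus. C1qa had 64 cornea reads and 543 limbus reads (61.9 and 561 normalized reads), a log2 ratio of 3.18 (CI 2.80 to 3.58). C1qb had 88 and 623 reads (85.1 and 644 normalized), a log2 ratio of 2.92 (CI 2.60 to 3.26). C1qc had 76 and 475 reads (73.5 and 491 normalized), a log2 ratio of 2.74 (CI 2.39 to 3.11). The chains were low but clearly present in the cornea and several times higher in the limbus. No pair of chains differed from each other beyond counting error. The ratio of the C1qa ratio to that of C1qb was 1.20 (CI 0.84 to 1.72), that of C1qa to C1qc was 1.36 (CI 0.94 to 1.97), and that of C1qb to C1qc was 1.13 (CI 0.80 to 1.60). These intervals still allow chain ratios that differ by up to 1.97 times. Per kb of exon, C1qb made up 44.5% of the trio in the cornea and 42.7% in the limbus, C1qa 33.9% and 38.9%, and C1qc 21.7% and 18.3%. The order of the chains per kb was therefore the same in both libraries.

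The 3 chains lie side by side on the minus strand of chromosome 4 (GRCm38, GENCODE M21), each with 3 exon blocks. C1qb is at chr4:136880129-136886187, C1qc at chr4:136889804-136893065 and C1qa at chr4:136895917-136898803. None of the 75-base stretches of their transcripts occurs in another gene. Because these neighbours had alike ratios, the stretches of 250 bases before the RefSeq starts of C1qb (chr4:136886201-136886450, minus strand) and C1qc (chr4:136892915-136893164, minus strand) are shown, build GRCm38.p6, with matches to GAGGAA, the core letters bound by ETS factors such as PU.1, in capitals. The RefSeq start of C1qc lies inside the GENCODE gene given above, so part of its stretch is within that gene. RefSeq sequence was at hand for 5 of the 9 genes, and for C1qa, C4b, Cfb and Serping1 none is shown.
C1qb: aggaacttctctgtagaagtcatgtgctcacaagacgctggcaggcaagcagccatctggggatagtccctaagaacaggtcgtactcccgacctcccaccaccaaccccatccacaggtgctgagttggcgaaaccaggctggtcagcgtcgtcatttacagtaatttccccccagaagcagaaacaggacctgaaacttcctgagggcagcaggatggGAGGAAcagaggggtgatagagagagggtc
C1qc: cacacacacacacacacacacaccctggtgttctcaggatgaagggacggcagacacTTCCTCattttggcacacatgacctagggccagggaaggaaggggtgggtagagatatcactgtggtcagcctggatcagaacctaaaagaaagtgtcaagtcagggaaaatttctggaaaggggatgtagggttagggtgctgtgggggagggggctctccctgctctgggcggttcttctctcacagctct
The match in C1qb is on the gene's own strand at positions -30 to -25 from the start, and that in C1qc is on the other strand, where it reads as TTCCTC, at positions -193 to -188. GAGGAA was found on either strand in 23.3% of 32851 mouse promoters of this length. Of the other members with a sequence, Cd59a had this match at positions -62 to -57, and C3 and Cd55 had none.

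Markers of macrophages, which are known for making C1q, were also higher in the limbus, most of them by less than the C1q chains. Of the 11 macrophage markers reported here, the limbus was higher for 11 beyond counting error, the median log2 ratio was 2.21 (range 0.78 to 3.24), and their summed level was 933 normalized reads for the cornea and 3116 for the limbus. Csf1r, the receptor on which macrophages depend, had 74 and 465 reads, a log2 ratio of 2.75 (CI 2.39 to 3.12). The ratio of the C1qa ratio to that of Csf1r was 1.35 (CI 0.93 to 1.96), for C1qb it was 1.13 (CI 0.80 to 1.59), and for C1qc 0.99 (CI 0.69 to 1.43). The fractalkine receptor Cx3cr1 had 24 and 151 reads (log2 ratio 2.75), the scavenger receptor Cd163 had 7 and 62 (3.24), and Adgre1, which encodes F4/80, had 22 and 119 (2.53). Csf1r, Cx3cr1 and Cd163 were the markers nearest to the chains in ratio. Lyz2, with 241 and 1045 reads, had a log2 ratio of 2.21 (CI 2.01 to 2.42). The lysosomal marker Cd68, with 402 and 644 reads, had a log2 ratio of only 0.78. None of these 11 markers was at 0 in either library. All 4 leukocyte markers were higher in the limbus, their summed level being 111 normalized reads for the cornea and 879 for the limbus, and Ptprc, which encodes CD45, had 30 and 72 reads. The part of these cells in the C1q difference was not tested.

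**Figure D2:**
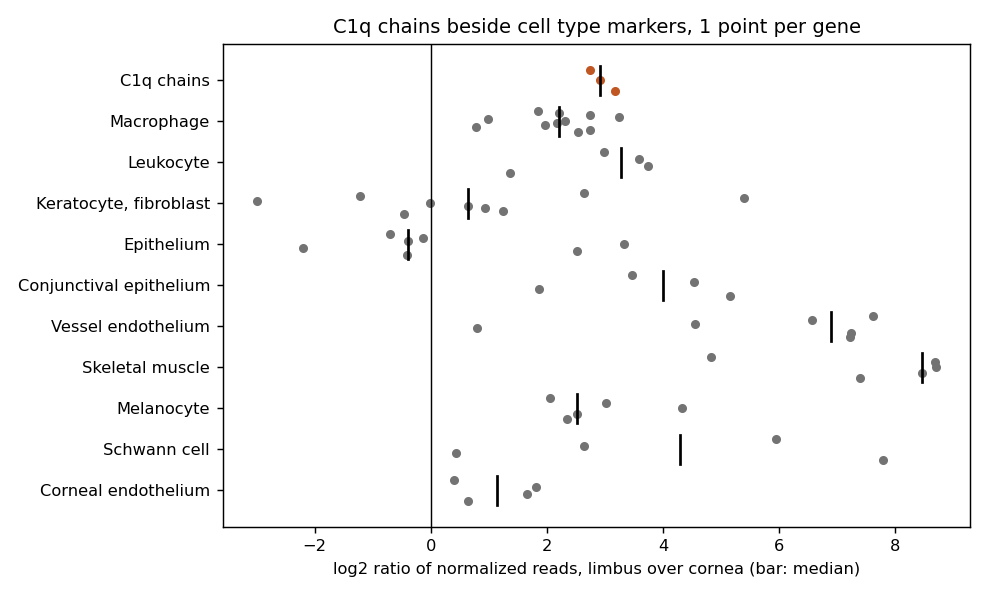
Log2 ratio of normalized reads, limbus over cornea, with 1 point per gene for the 3 C1q chains and for each list of cell type markers, bars marking the median of a list. The C1q chains (median 2.92) lie in the upper part of the macrophage markers (median 2.21) and among the leukocyte markers (median 3.28). They lie below most vessel (6.89) and muscle markers (8.46).

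Among the 4019 genes whose mean was within 2-fold of that of the C1q chains, the 3 with a log2 ratio nearest to the chains' median of 2.92 were Sult1a1 (50 and 354 reads, 2.92), Lgi2 (138 and 984 reads, 2.93) and Pdgfrl (80 and 561 reads, 2.91). This likeness rests on 2 libraries alone.

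Of the central components, C4b and Cfb differed more than the C1q chains did, and C3 differed less. C4b, cut by C1s to build the classical convertase, had 11 cornea reads and 671 limbus reads (10.6 and 694 normalized), 65.2 times higher in the limbus (CI 36.2 to 131, log2 ratio 6.03). Its log2 ratio was higher than that of 99.3% of the 13932 genes above. Cfb, the protease of the alternative convertase, had 1 cornea read and 131 limbus reads (0.967 and 135 normalized), a ratio of 140 (CI 24.7 to 5571), so its size is poorly fixed. With a pseudocount of 1 its log2 ratio was 6.12 rather than 7.13. Whether C4b or Cfb had the larger ratio was not resolved, the C4b ratio being 0.47 of that of Cfb (CI 0.01 to 3.26). C3, on which all pathways meet, had 159 and 485 reads (154 and 501 normalized), a log2 ratio of 1.70 (CI 1.44 to 1.97). C3 was thus the only central component with substantial reads in the cornea. Its ratio was 0.05 of that of C4b (CI 0.02 to 0.09), and each C1q chain had a higher ratio than C3 by 2.05 to 2.78 times, with CIs above 1.

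C4b (chr17:34728380-34743882) and Cfb (chr17:34856374-34862518) lie in the major histocompatibility complex region of chromosome 17, both on the minus strand with 40 and 17 exon blocks, and C3 lies further along at chr17:57203970-57228136. Of the 75-base stretches of C4b transcripts, 22.7% also occur in C4a, its near-identical neighbour, which had only 14 and 19 reads. The C4b ratio was 44.0 times that of C4a (CI 16.3 to 123), so the 2 copies did not share a ratio. Of the Cfb stretches, 69.9% also occur in Gm20547, an annotated gene that overlaps Cfb and C2 on the same strand and covers 79.5% of the Cfb exon length. How such reads were shared out is not given in the sources used here, and the Cfb values carry that limit. The 250 bases before the RefSeq start of C3 (chr17:57228137-57228386, minus strand, GRCm38.p6) are shown because C3 is known to respond to C/EBP factors, and the match to the C/EBP letters TTGCNNAA is in capitals.
C3: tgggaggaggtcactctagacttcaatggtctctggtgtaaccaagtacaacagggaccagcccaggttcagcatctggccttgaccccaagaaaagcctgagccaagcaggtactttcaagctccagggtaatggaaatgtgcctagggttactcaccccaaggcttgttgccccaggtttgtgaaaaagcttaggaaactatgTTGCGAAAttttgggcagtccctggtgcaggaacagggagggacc
The match, TTGCGAAA, lies on the gene's own strand at positions -45 to -38. TTGCNNAA was found on either strand in 9.56% of promoters of this length, and in no other member with a sequence. The GAS letters TTCNNNGAA, found in 7.02% of promoters, were in none of the 5 sequences.

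Of the inhibitors, Cd55 and Cd59a had the lowest ratios of the 9 genes, and Serping1 had the highest level. Serping1 encodes C1 inhibitor, the serpin that blocks C1r and C1s, and had 1415 cornea reads and 7484 limbus reads (1369 and 7737 normalized), a log2 ratio of 2.50 (CI 2.42 to 2.58). Cd55 encodes decay-accelerating factor, a membrane protein that takes convertases apart, and had 198 and 462 reads (192 and 478 normalized), a log2 ratio of 1.32 (CI 1.07 to 1.57). Cd59a encodes a membrane inhibitor of the attack complex and had 233 and 380 reads (225 and 393 normalized), a log2 ratio of 0.80 (CI 0.56 to 1.04). All 3 were higher in the limbus, but the membrane inhibitors much less so than the fluid-phase inhibitor. The Serping1 ratio was 2.27 times that of Cd55 (CI 1.89 to 2.71), and the Cd55 ratio was 1.43 times that of Cd59a (CI 1.13 to 1.82). Cd59a was the member nearest to the bulk of genes, its log2 ratio being above that of 79.8% of those 13932 genes.

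The Serping1 ratio was close to that of C1qc, the ratio of the 2 being 1.18 (CI 0.92 to 1.54, C1qc over Serping1), and below those of C1qa (1.60, CI 1.23 to 2.13) and C1qb (1.34, CI 1.06 to 1.71). Against decorin (Dcn), an abundant matrix gene of keratocytes and fibroblasts, the Serping1 ratio was 3.64 times as high (CI 3.43 to 3.86), and that of Cd59a was 1.12 times as high (CI 0.95 to 1.33). Keratocyte and fibroblast markers were mixed: of 9 genes, the limbus was higher for 5, the cornea for 3 and neither for 1, and the summed level was 692058 normalized reads for the cornea and 380213 for the limbus. Aldh3a1, among the 3 genes higher in the cornea, alone supplied 614210 and 263762 of these. Its cornea level was near that of the epithelial keratin Krt5 (594079 normalized reads), so it and the full sum may not reflect keratocytes. The other 8 genes summed to 77848 and 116451, higher in the limbus. The part of keratocytes and fibroblasts in the Serping1 difference was not tested. Serping1 (chr2:84765387-84775444, minus strand, 8 exon blocks) shares no 75-base stretch with another gene. Cd55 (chr1:130439027-130462744, minus strand) shares 5.53% of its stretches with Cd55b, listed at 0 under an older symbol, and Cd59a (chr2:104095801-104115354, plus strand) shares 1.66% with Cd59b, which had 12 and 11 reads.

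**Figure D3:**
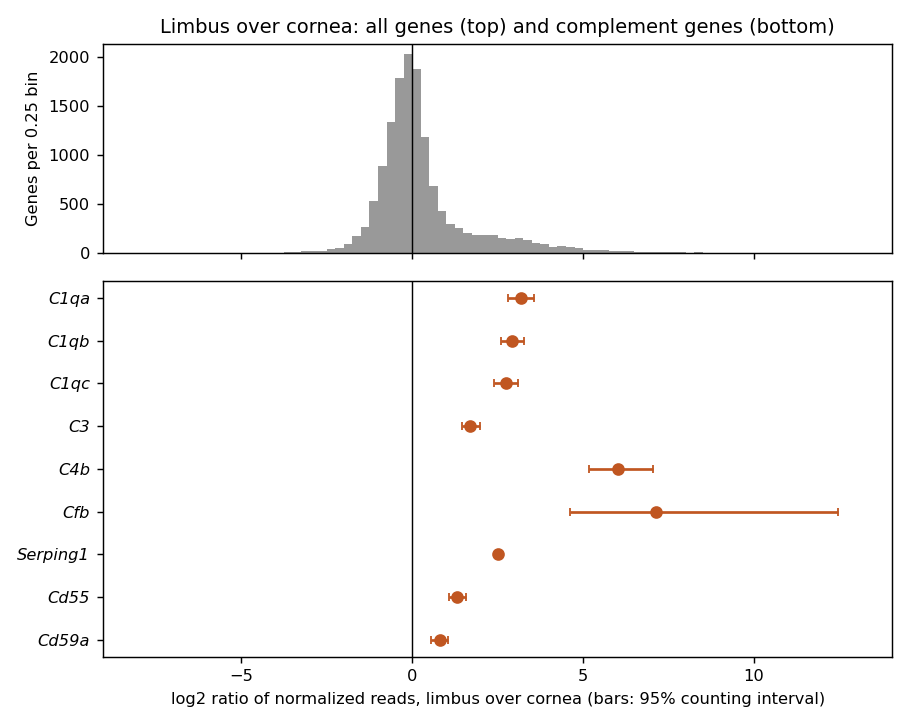
Top, number of genes in each 0.25 bin of the log2 ratio of normalized reads, limbus over cornea, for genes averaging at least 10 normalized reads and seen in both libraries. Bottom, the 9 complement genes with 95% counting intervals, from 0.80 for Cd59a to 7.13 for Cfb, all to the right of 0.

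Levels were compared between genes as normalized reads per kb of exon. In the cornea Serping1 was highest with 589, followed by Cd59a (124), C1qb (78.2), C1qa (59.5), Cd55 (39.5), C1qc (38.1), C3 (29.9), C4b (1.87) and Cfb (0.34). In the limbus the order was Serping1 (3328), C1qb (592), C1qa (540), C1qc (254), Cd59a (217), C4b (122), Cd55 (98.4), C3 (97.5) and Cfb (47.9). Serping1 thus led both lists and Cfb closed both, while the C1q chains and C4b stood above the membrane inhibitor Cd55 in the limbus but only C1qa and C1qb did so in the cornea. Of the 8 neighbouring pairs in each order, 4 in the cornea and 2 in the limbus did not differ beyond counting error. In the cornea these were C1qb and C1qa, Cd55 and C1qc, C1qc and C3, and C4b and Cfb. In the limbus they were C1qb and C1qa, and Cd55 and C3.

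The other genes of the pathway were drawn from a list of 45, all found in the table, of which 9 were listed at 0, 5 had 3 reads or fewer in both libraries and 31 had more. Of these 31 genes, the limbus was higher for 19 beyond counting error, the cornea for 2 and neither for 10, against the 35.5% and 36.7% given above for all genes. Their median log2 ratio was 1.28, genes with no cornea read being set to 3 cornea reads, and the ratios ran from -3.24 to 6.29. The difference was therefore less uniform in the rest of the pathway than in the 9 members, with 2 genes going the other way. Some of the 10 unresolved genes had few reads, such as Masp2 with 3 and 6.

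C1r and C1s, the proteases that act with C1q, had smaller ratios than the C1q chains or C4b. C1ra, encoding C1r, had 331 and 806 reads (log2 ratio 1.38, CI 1.19 to 1.57), and 42.4% of its 75-base stretches are shared, mostly with C1rb, which was listed at 0. C1s1, encoding C1s, had 1035 and 1700 reads (0.81, CI 0.70 to 0.92), with 24.8% of its stretches shared, 13.0% with C1s2. C1qa exceeded C1ra in ratio by 3.48 times (CI 2.60 to 4.73) and C1s1 by 5.16 times (CI 3.93 to 6.88). C2, the classical counterpart of factor B, had 14 and 176 reads (3.75, CI 2.96 to 4.65), with 39.2% of its stretches shared, again chiefly with Gm20547. C1s2 had 1 and 11 reads. In the lectin pathway, Masp1, a protease, had 43 and 98 reads (1.28) and the collectin Colec12 had 199 and 336 (0.85). Colec11 had no cornea read and 33 limbus reads, 11.8-fold higher when the cornea is set to a floor of 3 reads. Such a floor value is not a counting limit, and the true ratio may be lower. Masp2 (3 and 6 reads) and Fcna (11 and 6) were not told apart at this depth, and Mbl1, Mbl2, Fcnb and Colec10 were listed at 0. Of the Masp2 stretches, 51.4% are shared with Tardbp, an overlapping gene on the opposite strand.

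In the alternative pathway, Cfp, which encodes properdin, the stabiliser of the convertase, had 27 and 101 reads (26.1 and 104 normalized, log2 CI 1.37 to 2.67). Cfd, the protease that cuts factor B, had 0 and 9 reads, 3.21-fold higher in the limbus with the cornea set to 3 reads. Of the terminal pathway, Hc, which encodes C5, had 0 and 28 reads, 9.97-fold higher with the same floor. C8g had 20 and 31 reads and C8a 1 and 4, neither resolved, C7 had 0 and 2, and C6, C8b and C9 were listed at 0. Reads for the attack complex beyond C5 were thus few or none in both tissues.

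Among the fluid-phase regulators, Vtn, vitronectin, had 3 and 112 reads (log2 ratio 5.32, CI 3.73 to 7.62), and Clu, clusterin, had 6544 and 11359 (0.89, CI 0.85 to 0.94). Cpn1, the carboxypeptidase that trims anaphylatoxins, went the other way with 232 and 23 reads, 9.44 times higher in the cornea (log2 ratio -3.24, CI -3.92 to -2.62). Cfi had 1 and 0 reads and C4bp 0 and 2.

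On the membrane, Cr1l, the rodent regulator Crry, had nearly equal reads, 1452 and 1413 (log2 ratio 0.06, CI -0.05 to 0.16). It was the most read of the membrane regulators listed. Per kb of exon, however, Susd4 was higher in the cornea (191 against 136 normalized reads) and Cd59a in the limbus (217 against 141). Unlike Cd55 and Cd59a, Cr1l did not differ beyond counting error under the size factors given. Scaling to total reads, which adds 0.21 to every log2 ratio, would place the Cr1l CI above 0. Susd4 had 763 and 439 reads and was higher in the cornea (log2 ratio -0.70, CI -0.87 to -0.53). Thbd, thrombomodulin, which is typical of vessels, had 95 and 415 reads (2.22, CI 1.90 to 2.56). Cd46 had 11 and 5 reads and Cd59b 12 and 11, neither resolved, and Csmd1 had 1 and 22. Of the receptors, C3ar1 had 14 and 51 reads (1.96, CI 1.09 to 2.93), whereas C5ar1 (12 and 21) and C5ar2 (41 and 31) were not resolved, although with total reads the CI of C5ar1, like that of C8g, would also lie above 0. Cr2 (2 and 2 reads) and Vsig4 (0 and 1) were at or under the floor. The integrin chains of the complement receptors were higher in the limbus, Itgax with 19 and 73 reads (2.04), Itgb2 with 7 and 59 (3.17) and Itgam with 6003 and 8793 (0.65). Itgam exceeded its partner Itgb2 by far in reads, and 65.2% of its 75-base stretches are shared with Gm49368, an overlapping gene on the same strand. Cd93, typical of vessel lining, had 3 and 220 reads (6.29, CI 4.73 to 8.58).

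**Figure D4:**
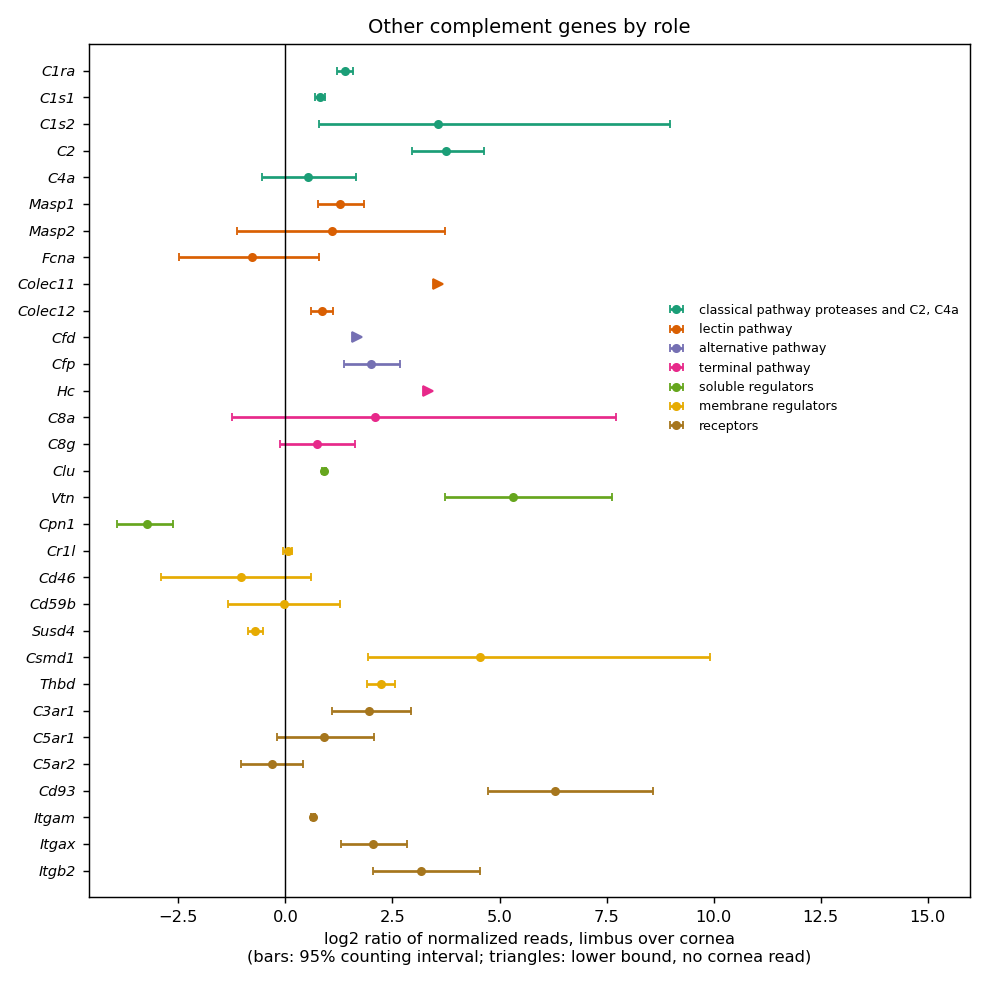
Log2 ratio of normalized reads, limbus over cornea, of the 31 other complement genes with more than 3 reads in a library, coloured by role, with 95% counting intervals. Triangles mark the 3 genes with no cornea read, with the cornea set to 3 reads. The axis calls this a lower bound, but it is not a counting limit. Most points lie to the right of 0, with Cpn1 (-3.24) and Susd4 (-0.70) to the left and Cr1l (0.06) at 0.

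The liver is the source of most plasma complement, and its markers bear on whether liver-type RNA was present. Of 6 such genes, Alb, Fgb and Serpina1a were listed at 0 and Apoa1 (1 and 2 reads) and Apoa2 (0 and 3) were at or under the floor. Ttr, which is also made inside the eye, had 72 and 640 reads. Of the red cell genes, Hbb-bs had 13 and 72 reads, Alas2 had 99 and 102, and the Hba genes were listed at 0. Vessel markers were higher in the limbus for 6 of 6 genes, with a summed level of 193 normalized reads for the cornea and 2528 for the limbus, and the ratio of C4b to that of Pecam1 was 0.44 (CI 0.13 to 1.31), that of Cfb to Pecam1 0.95 (CI 0.11 to 43.8). C4b and Cfb were thus not told apart from Pecam1, whereas the C1q chains, C3 and the 3 inhibitors had lower ratios than Pecam1. This holds for Pecam1 only, since the vessel markers ran from Kdr (log2 ratio 0.81) to Emcn (7.61). Kdr supplied 164 of the 193 cornea reads of the vessel sum. Genes of other lists also came near C4b (6.03), such as the Schwann cell gene Sox10 (5.94). Conjunctival markers were higher in the limbus for 4 of 4 genes above the floor, the goblet cell mucin Muc5ac having 1 and 1 reads. Of 7 epithelial markers, the limbus was higher for 2 and the cornea for 5, among them Cdh1, whose log2 ratio of -0.13 changes sign with scaling to total reads. Melanocyte (5 of 5), Schwann cell (4 of 4) and corneal endothelial markers (4 of 4) were all higher in the limbus. The part of the marker lists that moved with the complement genes in their differences was not tested.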

How the data were processed

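Limbal rims and corneal buttons were pooled by tissue, and stranded total RNA libraries were sequenced. The authors used CLC Genomics Workbench to trim adaptors and align to GRCm38 (mm10), and their methods name a trimmed mean of M-values as the normalization. The strand setting used in counting is not given in the sources used here. The deposited comparison is labelled deseq, a program that the methods do not name. The authors deposited 1 table for the comparison, whose mean is a signal, the average over the libraries of reads divided by a size factor. They also deposited a log2 fold change of cornea over limbus with its standard error, p-values and adjusted p-values. These comparison columns are not reported. The log2 fold change and standard error served only to work back the reads.

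Of 40904 rows, 23420 name a gene. The 17484 others (42.7%) have no values and were left out. A further 5978 genes are listed at 0. For the other 17442, each mean is a sum of scaled whole reads from 2 libraries, in which 109 cornea reads weigh as much as 102 limbus reads. Among the pairs of read numbers that fit a mean, the pair was kept whose negative binomial fit with a normal prior gave the deposited log2 fold change and standard error. For 17441 genes both were met to 0.001, and 28 near ties were settled by the dispersion trend. The members were met to 2.1e-06. For C3 and Serping1 the next best pair also met 0.001, missing by 0.00054 and 0.00072, so there the choice rests on the closer fit. On simulated data of 17057 genes, 100% of read numbers were found. The simulation used the same fit, prior and size factors, so it did not test the model itself. The reads were thus inferred rather than deposited, and no count test was run.

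Samples labelled 1 to 4 per tissue have no value of their own in the table, so each tissue counted as 1 library. Reads were divided by the size factors. Intervals are exact Clopper-Pearson at 95%, and ratios of ratios have exact conditional intervals from Fisher's noncentral distribution. A library at 0 was set to 3 reads for the fold given, which is not a counting limit. No fold was given where both were at 3 or fewer. At least 10 reads were found for 13067 genes in the cornea and 14218 in the limbus. Alternatives were scaling to total reads, a trimmed mean of M-values (30% of log ratios and 5% of means trimmed), a pseudocount of 1, filters on the mean and a fold threshold.

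The members and the lists of other complement genes and cell type markers were chosen with earlier results of these data known. The values of some listed genes are not reported here, and all counts, medians and sums of the lists are without them. The genes named are the members, these lists and the 3 genes nearest to the C1q median. Positions, exon lengths and shared 75-base stretches are from GENCODE M21, and promoters from RefSeq (GRCm38.p6). Genes set beside members in ratios of ratios, and the sum without Aldh3a1, were picked after their values were seen. Python 3.11.15, numpy 2.4.6, scipy 1.17.1, pandas 2.3.3 and matplotlib 3.10.9 were used.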

Additional observations from a re-analysis of the deposited data

How the results depend on the processing

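All 9 members stayed higher in the limbus beyond counting error after scaling to total reads, which adds 0.21 to every log2 ratio (lowest bound 0.77), and after a trimmed mean of M-values, which adds 0.02 (lowest bound 0.58). The Serping1 log2 ratio was 2.70 with total reads, a shift larger than its counting interval. A pseudocount of 1 kept all 9 log2 ratios within their intervals, but took that of Cfb, with 1 cornea read, from 7.13 to 6.12. The number of other complement genes higher in the limbus was 11 rather than 19 at a mean of at least 50. That filter leaves fewer genes, so the drop is not a smaller share of the same genes. The cornea was still higher for 2. With total reads the number higher in the limbus was 22, the 3 added being Cr1l, C5ar1 and C8g. At a ratio of at least 2 and a mean of at least 10, 1 other complement gene was higher in the cornea, since Susd4 fell short of that ratio. Reads taken from the mean alone gave no value, because every member's mean allows 2 to 86 pairs of read numbers. Depth limits the size of the Cfb ratio most, with 1 read in the cornea. No paired analysis was possible because the table holds 1 value per tissue and none for a numbered sample.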
